A study of Xenopus laevis with 18 samples.

Results

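Mitochondrial ribosomal protein mRNAs are the nuclear transcripts for the proteins of the mitochondrial ribosome. They were chosen by symbol, as every transcript whose deposited Xenopus name starts with mrps (small subunit) or mrpl (large subunit) followed by a number. The rule found 104 of 51026 transcripts, 41 for the small and 63 for the large subunit, from 74 base symbols. Xenopus laevis is an allotetraploid frog, so a gene can have an L and an S homeolog, 1 on each subgenome. Of the members 61 were L and 43 were S transcripts, and 27 symbols had both. The human symbol deposited beside each of the 104 rows was the same as the frog symbol.

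Defolliculated stage VI oocytes, full-grown cells arrested in meiotic prophase, and mature eggs were split into cytosol, endoplasmic reticulum (ER) and pellet, and the RNA of each fraction was sequenced. Oocytes were kept in culture medium without hormone, and eggs came from such oocytes cultured with 2 µM progesterone, both at 18 °C. Each of the 6 groups (3 fractions at 2 stages) had 3 libraries from 4 cells each, and a mixture of 5 spike-in RNAs was added to every fraction. The sources used here name no strain, genotype, age or frog of origin. The p-values therefore reflect only how much these libraries vary, which may be technical.

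The mitochondrial ribosome makes the few proteins that the mitochondrial genome encodes, most of them core subunits of the respiratory chain. Its own proteins are encoded in the nucleus, translated in the cytoplasm and imported. Many have a counterpart in the bacterial ribosome (62 of the 104 transcripts here), and others are particular to mitochondria (41). The Xenopus oocyte holds a large store of mitochondria and of maternal mRNA, which the embryo inherits.

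The libraries held 23095791 to 37834030 estimated counts, of which the members took 0.167 to 0.297%. In the ER libraries 1 transcript, ccdc50.L, took 16.9 to 17.8% of TPM (a level per transcript length, scaled to the library) in oocytes and 21.9 to 29.6% in eggs, with egg ER replicate 1 the highest. Germ cell markers were present in all libraries, where their 12 transcripts summed to 392 to 1428 TPM with 1 of them, bmp15.S, at 0 throughout. Blood and liver markers summed to 0.019 to 0.704 TPM. The 25 follicle cell marker transcripts, none of them at 0 throughout, summed to 377 to 986 TPM. Their list names vim, krt8 and krt18 beside genes such as fshr and cyp17a1. The sum was not split by gene, so it does not show how much RNA came from follicle cells.

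Most members were moderately abundant maternal mRNAs. Over the 18 libraries their median level was 37.6 TPM, against 12.7 TPM for the 25938 transcripts that passed the filter on low counts and 105 TPM for the cytosolic ribosomal protein mRNAs. The small subunit (median 39.9 TPM) and the large subunit (37.4 TPM) had similar medians. In the deposited annotation 91 members were classed as high-abundant, or 87.5%, against 34.9% of all transcripts. The deposited animal-vegetal classes covered 82 members, 77 animal and 5 extremely animal, with none vegetal. This 100% stands beside 97.4% of the 11468 transcripts with such a class, so the classes hardly separated members from other transcripts.

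The most abundant member was mrps17.L at 129 TPM, the small subunit protein whose bacterial counterpart binds the rRNA early in assembly. It was followed by mrpl54.S (122 TPM), mrps26.L (120.2 TPM), mrpl24.L (120 TPM) and mrpl16.S (115 TPM). The lowest members that passed the filter were mrpl27.S at 0.218 TPM, mrps35.S at 0.379 TPM and mrps10.L at 0.735 TPM. Another 7 members did not pass and were not tested. Of these, mrps15.S and mrps23.S had no count in any library, and mrpl17.L, mrpl39.S, mrpl40.L, mrpl44.L and mrpl57.L had at most 10 in a library.

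Homeologs of the same protein were often present at unequal levels. Among 26 genes with a single L and a single S row, L was the higher in all 18 libraries for 13 and S for 12, while mrpl1.L exceeded mrpl1.S in 17. The levels differed by over 2-fold in 19 genes. For mrps12, the decoding-centre protein, S averaged 50.6 TPM and L 24.9 TPM. For mrps10, a protein of the small subunit head, S averaged 105 TPM and L 0.735 TPM. The opposite order held for mrps35, where L averaged 24.5 TPM and S 0.379 TPM. The quantification may divide reads between near-identical homeologs, so single homeolog values are uncertain, as are those of mrpl4.L, mrpl9.S and mrps2.L, which each have 2 rows.

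**Figure D1:**
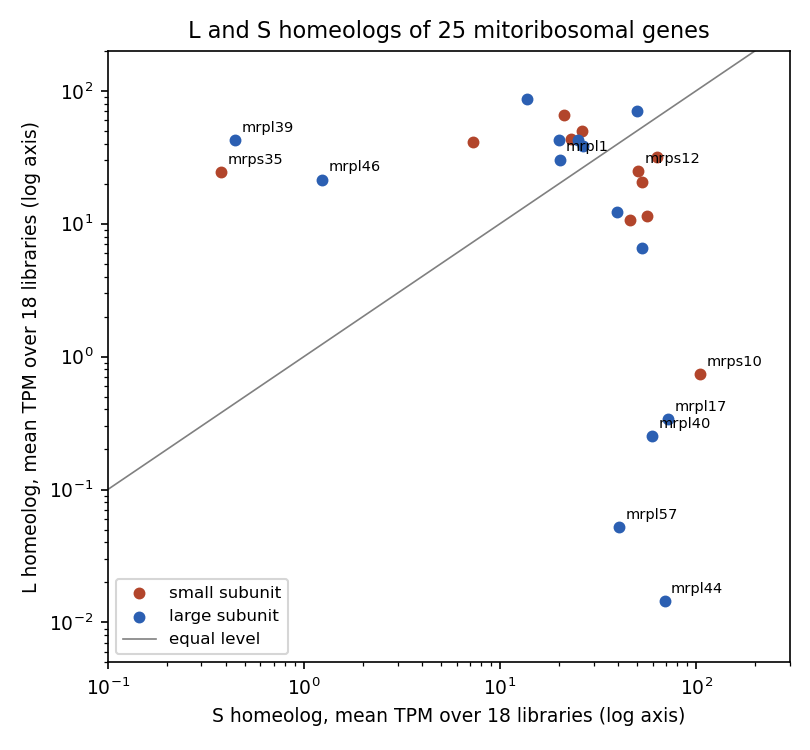
Mean level of the L homeolog (vertical, TPM, log axis) against the S homeolog (horizontal, TPM, log axis) for 25 genes, each point 1 gene and its mean over 18 libraries. Genes far from the line of equal level, such as mrps10 and mrps35, had nearly all of their mRNA from 1 homeolog; mrps15, with no count for S, is not drawn.

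The deposited attomolar values, set from the spike-ins, place each transcript's copies among the fractions of a stage. In oocytes the members' summed copies were 44.2% ± 4.53 (SD, n = 3) cytosolic, 38.1% ± 4.23 in the ER and 17.7% ± 6.41 in the pellet. In eggs they were 62.4% ± 4.22 cytosolic, 20.6% ± 3.25 in the ER and 17.02% ± 7.19 in the pellet. By replicate the oocyte cytosol held 41.5, 49.5 and 41.7% and the oocyte ER 33.7, 38.3 and 42.2%, so the cytosol was ahead in replicates 1 and 2 and the ER in replicate 3. The egg cytosol held 57.6, 65.6 and 63.9%, above the egg ER in each replicate and above every oocyte value. The pellet share was 24.7% and 25.3% in replicate 1 of oocytes and eggs, and 12.2 to 16.1% in the other replicates, so replicate 1 stood apart in the pellet at both stages. Without replicate 1 the pellet shares averaged 14.2% in oocytes and 12.9% in eggs.

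Members held less of their copies in the cytosol than most transcripts did. The median transcript tested had a mean share of 51.4% in the oocyte cytosol, and 6 of the 97 members tested were above it. The corresponding medians were 32.9% in the oocyte ER, with 84 members above, and 13.5% in the oocyte pellet, with 85 above. In eggs the medians were 67.8% in cytosol, 18.5% in ER and 12.5% in pellet, with 22, 65 and 73 members above. Cytosolic shares in oocytes ran from 28.8% for mrpl15.L to 56.5% for mrps30.L.

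A larger cytosol share in eggs was seen in most members. The cytosol share was higher in every egg replicate than in every oocyte replicate for 82 of 97 members (32 of 39 small and 50 of 58 large), where the same held for 66% of all transcripts tested. No member had a lower cytosol share in eggs without overlap, against 1.69% of all transcripts. The ER share was lower in every egg replicate than in every oocyte replicate for 91 members, where the background was 79.8%. The 6 others were mrpl27.S, mrps10.L, mrps18c.S, mrps21.S, mrps28.L and mrps35.S. No member had a higher ER share in eggs without overlap, against 0.297% of all transcripts. In the pellet 1 member was higher and 1 lower without overlap, where the background was 4.54% and 3.96%. Shares of a stage sum to 100%, so these counts are not independent of each other.

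**Figure D2:**
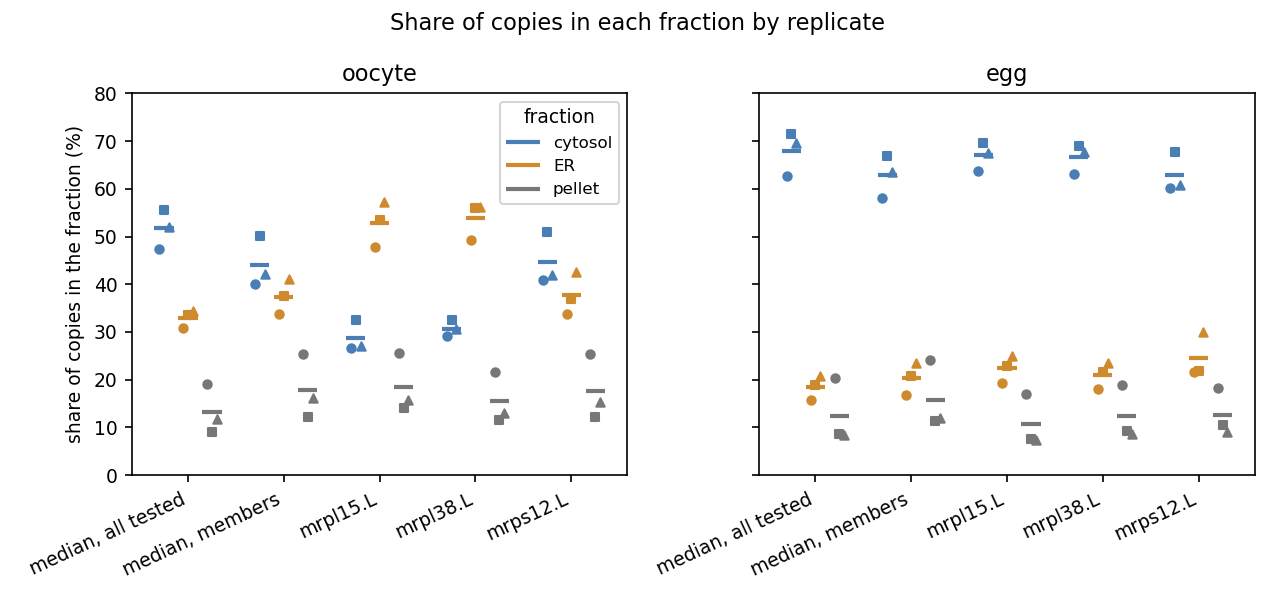
Share of a transcript's copies in each fraction (vertical, %), in oocytes and eggs, for the median transcript tested, the median member and 3 members. Points are replicates (circle 1, square 2, triangle 3) and bars their means; mrpl15.L and mrpl38.L had more ER than cytosol copies in oocytes and the reverse in eggs.

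By mean share, the largest redistribution among the 97 members was that of mrpl15.L and mrpl38.L. The protein of mrpl15 has a bacterial counterpart in the interior of the large subunit, and that of mrpl38 is particular to mitochondria and sits in the central protuberance in mammals. In oocytes the ER held 47.7, 53.4 and 57.3% of mrpl15.L copies in replicates 1 to 3, and the cytosol 26.7, 32.6 and 26.98%. In eggs the ER held 19.3, 22.8 and 24.9% of mrpl15.L and the cytosol 63.8, 69.7 and 67.6%. The order of the fractions was reversed, and neither fraction's values overlapped between stages.

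The mRNA mrpl38.L followed the same course. Its ER share was 49.3, 55.9 and 56.3% in oocytes and 18.0, 21.6 and 23.5% in eggs, while its cytosol share went from 29.1, 32.4 and 30.6% to 63.0, 69.1 and 67.8%. The ER share of mrps12.L was nearer to that of the median member, at 33.7, 36.9 and 42.6% in oocytes and 21.7, 21.7 and 30.03% in eggs. Its cytosol share was 41.0, 50.9 and 42.0% in oocytes and 60.1, 67.7 and 60.9% in eggs, without overlap.

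The same question was put to the counts with edgeR's quasi-likelihood test, which compares a fraction with the cytosol relative to the typical transcript. Calls were made at a Benjamini-Hochberg adjusted p under 0.05 over 25938 transcripts. Levels in CPM are counts relative to the TMM-scaled library total, so a log2 fold change of 0 means moving with the bulk of transcripts, not an equal number of copies. On spike-in scaling the typical transcript was itself lower in ER and pellet than in cytosol, by −0.81 and −1.68 (log2) in oocytes and by −1.80 and −1.94 in eggs. On that scale the member counts turn round together with the typical transcript. The spike-in counts are given beside each result, with the share of all transcripts for the oocyte fractions only. Alone they do not set members apart from other transcripts. In the rankings that follow, the highest and lowest members are those with a mean log2 CPM of at least 3 over the libraries, and less abundant members that lay beyond them are named as such.

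In oocytes the members leaned to the ER. Of the 97 tested, 66 were higher in the ER than in the cytosol and 1 was lower, where 24.3% of all transcripts were higher and 24.8% lower. The median log2 fold change was 0.39, against 0.00 for all transcripts. By subunit, 44 of 58 large subunit mRNAs were higher and none lower (median 0.44), and 22 of 39 small subunit mRNAs were higher and 1 lower (median 0.31). The difference between the subunits was not tested. With spike-in scaling 2 members were higher and 31 lower, where 2.56% of all transcripts were higher and 60.3% lower.

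The 2 members highest in the oocyte ER were mrpl15.L and mrpl38.L. The level of mrpl15.L was 15.9, 16.1 and 15.1 CPM in cytosol and 44.2, 42.6 and 43.7 CPM in ER, so no libraries overlapped. Its log2 fold change was 1.47 ± 0.05 (SE, adjusted p = 3.57e-15, edgeR). For mrpl38.L the values were 26.4, 25.1 and 25.9 CPM in cytosol and 70.0, 69.9 and 65.0 CPM in ER, again apart, with a log2 fold change of 1.40 ± 0.06 (adjusted p = 2.3e-14, edgeR). Both remained higher in the ER with spike-in scaling, at 0.65 (adjusted p = 0.0139, edgeR) for mrpl15.L and 0.59 (adjusted p = 0.0272) for mrpl38.L.

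Next was mrps36.S, whose protein carries a ribosomal name but is a component of the ketoglutarate dehydrogenase complex in mammals and yeast. Its level was 16.04, 16.6 and 12.8 CPM in cytosol and 33.3, 36.6 and 33.1 CPM in ER, a log2 fold change of 1.18 ± 0.11 (adjusted p = 8.46e-09, edgeR). With spike-in scaling it was 0.35 and no longer called (adjusted p = 0.189, edgeR), and limma on the attomolar values did not call it either (adjusted p = 0.108 and 0.0694 with pseudocounts of 0.01 and 0.1 aM). The mRNA for the decoding protein mrps12 was higher through both homeologs, with 0.39 ± 0.11 for mrps12.L (adjusted p = 0.00423, edgeR) and 0.98 ± 0.09 for mrps12.S (adjusted p = 8.77e-09, edgeR). Levels of mrps12.L were 13.9, 14.7 and 13.1 CPM in cytosol and 17.9, 17.8 and 19 CPM in ER. With spike-in scaling mrps12.L turned to −0.42.

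The single lower member was mrps30.L, whose protein is of the large subunit in mammals despite its name. It stood at 43.4, 42.1 and 43.7 CPM in cytosol and 35.6, 35.7 and 40.3 CPM in ER, a log2 fold change of −0.21 ± 0.07 (adjusted p = 0.0124, edgeR). The call was lost without oocyte ER replicate 1 or without oocyte ER replicate 2, at −0.18 in both cases. The homeolog mrps30.S was at 0.24 in the same comparison. Next lowest, and not called, were a row of mrpl9.S at −0.16 and mrpl2.L at −0.06. The less abundant mrpl27.S (−0.54) and a row of mrpl4.L (−0.41) had lower values, also not called.

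Role groups within the ribosome all had positive medians in the oocyte ER. In the central protuberance group (mrpl18, mrpl38, mrpl40, mrpl46, mrpl48 and mrpl58), 7 of 8 tested transcripts were higher, with a median of 0.55. In the stalk group, whose bacterial counterparts recruit translation factors (mrpl10, mrpl11 and mrpl12), 3 of 4 were higher with a median of 0.43. Around the peptidyl transferase centre (mrpl2, mrpl3, mrpl4, mrpl16 and mrpl27), 4 of 7 were higher with a median of 0.50. At the tunnel exit (mrpl22, mrpl23, mrpl24, mrpl45 and mrpl47), 3 of 5 were higher with a median of 0.17.

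In the small subunit, the platform group (mrps6, mrps11, mrps18b, mrps18c and mrps21) had 6 of 8 higher with a median of 0.40. The head group (mrps7, mrps9 and mrps10) had 2 of 5 higher with a median of 0.09. The role groups were chosen after their values were seen and do not hold every protein of a region. Members with a bacterial counterpart and members particular to mitochondria had like medians, 0.38 with 39 of 60 higher and 0.39 with 26 of 36 higher. Of mitochondrial aminoacyl-tRNA synthetases, which charge the organelle's tRNAs, 4 of 14 were higher and 5 lower (median −0.06), and of mitoribosome assembly factors 6 of 26 were higher and 2 lower (median 0.08). Mitochondrial translation factors had 4 of 11 higher and 2 lower (median −0.03), and mitoribosome proteins under other symbols 4 of 6 higher and none lower (median 0.30). Cytosolic ribosomal protein mRNAs had 67 of 120 higher and 5 lower (median 0.30). The differences between these lists and the members were not tested.

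Transcript length ran with the ER and pellet values among all transcripts, and members were short, with a median of 1808 bases (446 to 5104) against 2555 for all. Among transcripts tested the median was 1863 bases for members and 4024.5 for all. Across the 97 members Spearman's rho between length and the oocyte ER log2 fold change was −0.31, and across the 25938 transcripts −0.28. These are correlations across transcripts of the same libraries, which are not independent replicates. Of all transcripts within the members' middle range of length, 36.4% were higher in the oocyte ER and 7.40% lower (median 0.23). In the oocyte pellet 51.3% of them were higher and 13.9% lower (median 0.44). In the egg ER 26.8% of these were higher and 8.29% lower (median 0.14), where the members had 45.4% higher and 9.28% lower (median 0.18). In the egg pellet 49.4% were higher and 13.01% lower (median 0.39), where the members had 59.8% higher and 12.4% lower (median 0.48). The part of length in the members' values was not tested.

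In the oocyte pellet the lean was larger. Of 97 members 80 were higher than in the cytosol and none was lower, where 35.6% of all transcripts were higher and 32.6% lower. The median log2 fold change was 0.68, against 0.07 for all transcripts. Of the large subunit 52 of 58 were higher (median 0.80), and of the small subunit 28 of 39 (median 0.52). With spike-in scaling none was higher and 85 were lower, where 3.89% of all transcripts were higher and 82.8% lower. Follicle cell markers also stood higher there: 13 of their 20 tested transcripts were higher in the pellet than in the cytosol (median 1.23). Their summed level was 814 to 839 TPM in the oocyte pellet and 841 to 865 TPM in the oocyte cytosol, and their part in the result was not tested. Germ cell markers were also mostly higher, 9 of 11 tested with 1 lower (median 0.73). They summed to 1337 to 1428 TPM in the oocyte pellet and 496 to 522 TPM in the oocyte cytosol.

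**Figure D3:**
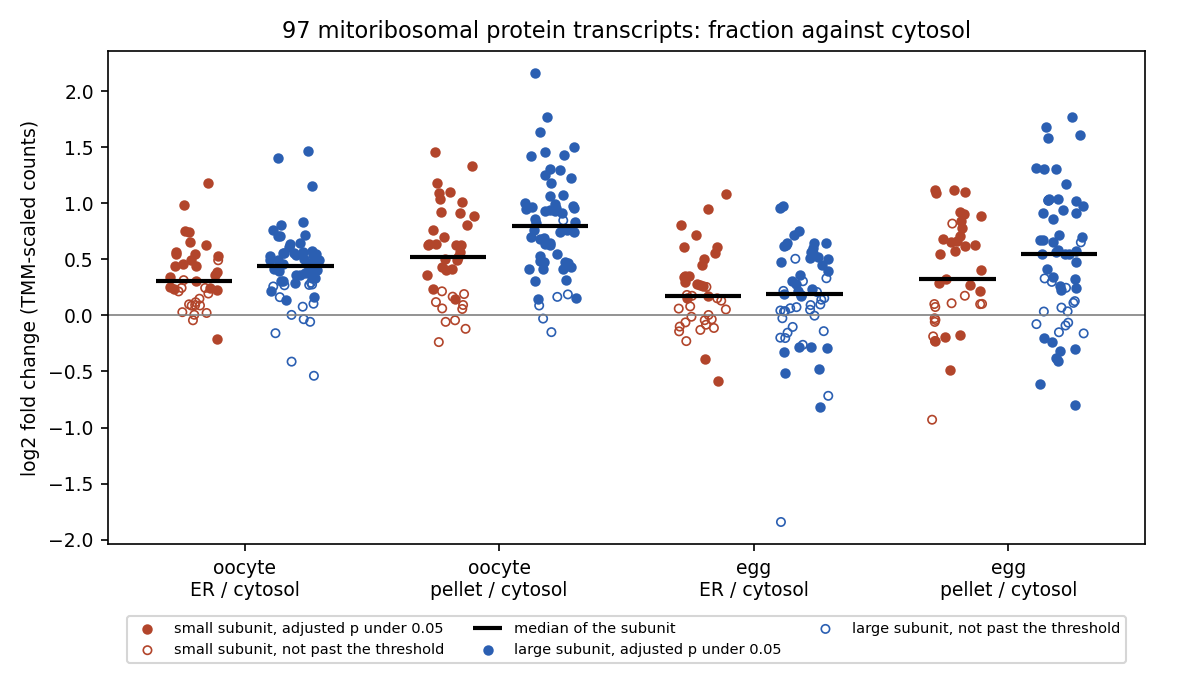
Log2 fold change (TMM-scaled counts, edgeR) of each of 97 members for ER or pellet against cytosol, in oocytes and eggs, by subunit. Filled points passed an adjusted p under 0.05, and black bars are subunit medians. In the oocyte pellet 80 members lie higher past the threshold and none lower, against 35.6% and 32.6% of all transcripts.

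The highest oocyte pellet member was mrpl13.S, whose bacterial counterpart is needed early in large subunit assembly. It stood at 4.25, 4.35 and 4.06 CPM in the oocyte cytosol and 19.3, 19.7 and 17.6 CPM in the pellet, with no overlap and a log2 fold change of 2.16 ± 0.14 (adjusted p = 7.18e-12, edgeR). With spike-in scaling it kept its sign at 0.41 but missed the threshold (adjusted p = 0.118, edgeR). Next among members with a mean log2 CPM of at least 3 were mrpl48.S, of the central protuberance, at 1.77 ± 0.11 and mrpl32.S at 1.46 ± 0.10. Of the less abundant members, mrpl36.S (1.63) and mrpl33.L (1.502) lay between these. Levels of mrpl48.S were 7.71, 6.51 and 6.77 CPM in cytosol and 22.9, 25.4 and 23.3 CPM in pellet, those of mrpl32.S 11.2, 10.2 and 11.9 against 30.3, 31.7 and 29.4 CPM. For both mRNAs every pellet library was above every cytosol library. With spike-in scaling mrpl48.S was at 0.01 (adjusted p = 0.957, edgeR) and mrpl32.S at −0.29 (adjusted p = 0.256), neither of them called.

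For the members named first above, mrpl15.L reached 39.9, 39.7 and 37.3 CPM in the oocyte pellet, a log2 fold change over cytosol of 1.31 ± 0.05 (adjusted p = 1.28e-14, edgeR). The corresponding value was 0.97 ± 0.06 for mrpl38.L (adjusted p = 3.89e-12) and 0.63 ± 0.11 for mrps12.L (adjusted p = 1.76e-05). With spike-in scaling these turned to −0.44, −0.78 and −1.12. Among members with a mean log2 CPM of at least 3 the lowest pellet values were mrpl2.L at −0.15, mrps30.L at −0.12 and mrps31.S at −0.06, and the lowest of all 97 was mrps35.S at −0.24. None of these passed the threshold. The other homeolog had a positive value in the same comparison for mrps30 (S at 0.91), mrps31 (L at 0.92) and mrps35 (L at 1.18).

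By role, all 5 tunnel exit, all 4 stalk and all 8 platform transcripts tested were higher in the oocyte pellet, with medians of 0.63, 0.70 and 0.95. Of the listed head transcripts (mrps7, mrps9 and mrps10) 1 of 5 was higher, mrps9.L at 0.63, and the median was 0.06. That list does not hold every head protein, so its values do not describe the head as a whole. Not on it were, among others, mrps31, mrps33 and mrps35, with L at 0.92, 0.43 and 1.18 and S at −0.06, 0.63 and −0.24. Members with a bacterial counterpart had 50 of 60 higher, and members particular to mitochondria 29 of 36. The cytosolic ribosomal protein mRNAs stood further out, with 117 of 120 higher and a median of 1.34. The difference between the lists was not tested.

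In eggs the ER lean was smaller. Of 97 members 44 were higher in the ER than in the cytosol and 9 lower, where 18.4% of all transcripts were higher and 21.7% lower. The median log2 fold change was 0.18, against −0.02 for all transcripts, and was close in both subunits (0.17 small with 18 of 39 higher, 0.19 large with 26 of 58 higher). The cytosolic ribosomal protein mRNAs lay on the other side, with 16 of 120 higher, 64 lower and a median of −0.26. With spike-in scaling all 97 members were lower in the egg ER and none higher. The typical transcript was lower too, so this count does not set members apart from other transcripts.

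The highest egg ER members with a mean log2 CPM of at least 3 were mrpl46.L, of the central protuberance, and mrps18c.S and mrpl30.S. Among the less abundant ones mrps21.S was higher than any of these (1.08), and mrpl32.L (0.95) and mrps21.L (0.81) were above mrpl30.S. The level of mrpl46.L was 5.35, 5.42 and 4.92 CPM in the egg cytosol and 9.74, 9.74 and 11.3 CPM in the ER, a log2 fold change of 0.97 ± 0.12 (adjusted p = 9.84e-07, edgeR). For mrps18c.S it was 9.46, 9.74 and 10.8 CPM in cytosol and 17.5, 19.7 and 20.8 CPM in ER (0.95 ± 0.10), and for mrpl30.S the log2 fold change was 0.76 ± 0.08. Cytosol and ER libraries were apart for all 3 mRNAs. With spike-in scaling they turned to −0.80, −0.83 and −1.03.

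The lowest called member was mrpl10.S, a stalk protein. It stood at 12, 11.4 and 11.9 CPM in the egg cytosol and 5.10, 6.81 and 8.03 CPM in the ER, with the lowest value in replicate 1 and no overlap, and a log2 fold change of −0.81 ± 0.12 (adjusted p = 7.03e-06, edgeR). After it among called members came mrps18a.L at −0.58 ± 0.10 (adjusted p = 7.73e-05) and mrpl49.L at −0.51 ± 0.11 (adjusted p = 0.000561). The less abundant mrpl27.S (−1.84) and a row of mrpl4.L (−0.72) were not called. The mRNAs mrpl15.L and mrpl38.L, highest in the oocyte ER, were now close to the typical transcript, which does not mean equal copies in ER and cytosol. The value was 0.22 ± 0.05 for mrpl15.L (adjusted p = 0.00188) and 0.14 ± 0.06 for mrpl38.L, which missed the threshold (adjusted p = 0.0577).

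In the egg pellet 58 members were higher than in the cytosol and 12 lower, where 34.4% of all transcripts were higher and 32.4% lower. The median was 0.48 (0.03 for all transcripts), with 36 of 58 large subunit mRNAs higher (median 0.55) and 22 of 39 small (median 0.33). With spike-in scaling none was higher and 92 were lower. As the typical transcript was lower too, this count does not set members apart. Members with a bacterial counterpart had 39 of 60 higher and 5 lower (median 0.58), and members particular to mitochondria 18 of 36 higher and 7 lower (median 0.25). Follicle cell markers had 16 of 20 higher in this comparison (median 1.51, 951 to 986 TPM in the pellet and 789.8 to 839 TPM in the cytosol), and their part was not tested. Germ cell markers had 4 of 11 higher and 5 lower (median 0.11).

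The highest egg pellet members were mrpl13.S, mrpl20.L and mrpl3.S. Levels of mrpl13.S were 5.84, 5.81 and 5.43 CPM in cytosol and 17.5, 19.8 and 20.8 CPM in pellet (1.77 ± 0.13, adjusted p = 1.54e-10, edgeR). Those of mrpl20.L were 11.1, 13.5 and 13.6 against 38.0, 42.9 and 41.4 CPM (1.68 ± 0.09, adjusted p = 1.18e-12, edgeR). Those of mrpl3.S, whose bacterial counterpart reaches toward the peptidyl transferase centre, were 20.2, 22.7 and 21.1 against 58.0, 73.6 and 64.1 CPM (1.61 ± 0.09, adjusted p = 4.25e-12, edgeR). Pellet and cytosol libraries did not overlap for any of them, and with spike-in scaling the values turned to −0.21, −0.30 and −0.38.

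Lowest in the egg pellet among members with a mean log2 CPM of at least 3 were mrpl49.L at −0.62 ± 0.11 (adjusted p = 2.72e-05), mrps15.L at −0.49 ± 0.08 (adjusted p = 2.22e-05) and mrpl58.S at −0.41 ± 0.11 (adjusted p = 0.00193). The last encodes a release factor family protein built into the large subunit. Of the less abundant members mrpl55.L was lower, at −0.80 and called, and mrps35.S was at −0.93 and not called. The homeologs mrps35.L and mrpl58.L were at 0.10 and 0.03. The value of mrps12.L was 0.18 ± 0.11 and did not pass (adjusted p = 0.17, edgeR). It stood at 9.50, 14.2 and 11.1 CPM in the egg pellet, with replicate 1 the lowest, and 10.1, 11.4 and 9.40 CPM in the egg cytosol. These groups overlapped. Without egg pellet replicate 1 the value was 0.32 and past the threshold.

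The next comparisons set egg against oocyte within a fraction. In these libraries of a few cells a change in RNA per cell and a change in the cells recovered cannot be told apart. On spike-in scaling the typical transcript was higher in eggs by 0.24 (log2) in the cytosol, changed by −0.71 in the ER and by 0.04 in the pellet. In the cytosol 30 members were higher in eggs and 12 lower, where 18.4% of all transcripts were higher and 18.6% lower. The median was 0.05, against −0.01 for all transcripts. Of the small subunit 14 were higher and 3 lower, and of the large subunit 16 higher and 9 lower. With spike-in scaling 9 were higher and 1 lower, and the deposited attomolar values gave 25 higher and none lower by limma with a pseudocount of 0.01 aM. Without the share of all transcripts these counts do not set members apart.

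Highest among the members that rose in the cytosol were mrpl15.L and mrpl38.L. The level of mrpl15.L went from 15.9, 16.1 and 15.1 CPM in oocytes to 31.95, 31.8 and 31.9 CPM in eggs (1.02 ± 0.05, adjusted p = 2.82e-12, edgeR). That of mrpl38.L went from 26.4, 25.1 and 25.9 CPM to 49.5, 48.7 and 46.6 CPM (0.90 ± 0.06, adjusted p = 6.11e-11, edgeR). Next was mrpl35.L at 0.83 ± 0.11 (adjusted p = 2.41e-06). None of the 3 mRNAs overlapped between stages, and with spike-in scaling mrpl15.L rose by 1.28 and mrpl38.L by 1.16.

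In the other direction, mrpl46.L fell in the cytosol from 10.1, 11.1 and 9.09 CPM to 5.35, 5.42 and 4.92 CPM (−0.95 ± 0.12, adjusted p = 8.97e-07, edgeR). Next among members with a mean log2 CPM of at least 3 were mrpl17.S at −0.62 ± 0.06 (adjusted p = 7.69e-08) and mrps17.L at −0.50 ± 0.09 (adjusted p = 0.000145), and the less abundant mrpl32.L lay between mrpl46.L and mrpl17.S at −0.68. With spike-in scaling mrpl46.L was at −0.70 and still called (adjusted p = 0.0429, edgeR), while the calls of mrpl17.S (−0.36, adjusted p = 0.362) and mrps17.L (−0.23, adjusted p = 0.597) were lost. By limma on the attomolar values mrpl46.L was at −0.43 and −0.37 and not called (adjusted p = 0.286 and 0.162, pseudocounts of 0.01 and 0.1 aM). Of 20 homeolog pairs with both tested, 2 had 1 homeolog higher and the other lower here. The division of reads between near-identical homeologs leaves such values uncertain. For mrps12 L fell by 0.44 on the log2 scale while S rose by 0.35, and for mrpl11, a stalk protein, L rose by 0.37 while S fell by 0.27.

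In the ER 8 members were higher in eggs and 30 lower, where 12.4% of all transcripts were higher and 16.1% lower. The median was −0.14, against −0.01 for all transcripts, with −0.12 for the small and −0.15 for the large subunit. Without egg ER replicate 1, the library with most ccdc50.L, 19 members were lower. The number of higher members was 4 without oocyte ER replicate 1 and 5 without egg ER replicate 3. With spike-in scaling 82 were lower and none higher, on a scale where the typical transcript was lower too, so these counts do not set members apart.

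The largest loss in the ER was that of mrpl57.S, particular to the large subunit of mitochondria, from 13.5, 15.8 and 13.4 CPM in oocytes to 7.88, 5.93 and 6.69 CPM in eggs (−1.06 ± 0.10, adjusted p = 1.21e-07, edgeR). Then came mrpl10.S at −0.78 ± 0.12 (adjusted p = 2.89e-05) and mrpl14.L at −0.69 ± 0.10 (adjusted p = 1.56e-05). The highest of all 97 was mrps18c.L, which gained 0.64 and was below the abundance set for ranking. Among members with a mean log2 CPM of at least 3 the highest was its homeolog mrps18c.S, from 11.8, 13.02 and 13.96 CPM to 17.5, 19.7 and 20.8 CPM (0.58 ± 0.10, adjusted p = 0.000176, edgeR). Stages did not overlap for mrpl57.S or mrps18c.S. Next highest were mrpl45.L, in humans a membrane contact of the ribosome at the tunnel exit, at 0.41 ± 0.07 (adjusted p = 7.54e-05), and mrpl11.L at 0.33 ± 0.09 (adjusted p = 0.00937). The call for mrpl11.L was lost without oocyte ER replicate 1 (0.26) and without egg ER replicate 2 (0.27). With spike-in scaling mrps18c.S, mrpl45.L and mrpl11.L turned to −0.13, −0.30 and −0.40.

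In the pellet 17 members were higher in eggs and 40 lower, where 22.3% of all transcripts were higher and 21.4% lower. The median was −0.20, against −0.01 for all transcripts. Of the large subunit 29 of 58 were lower (median −0.27), and of the small subunit 11 of 39 (median −0.09). The count of higher members fell to 11 without oocyte pellet replicate 2 and to 10 without egg pellet replicate 2. With spike-in scaling 7 were lower and none higher, given without the share of all transcripts. Cytosolic ribosomal protein mRNAs had 106 of 120 lower (median −0.57).

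The largest pellet losses were those of mrpl57.S, mrps12.L and mrpl21.L. The level of mrpl57.S went from 17.8, 17.3 and 17.2 CPM to 7.86, 9.22 and 8.42 CPM (−1.04 ± 0.10, adjusted p = 2.18e-08, edgeR). That of mrps12.L went from 22.4, 21.4 and 20.8 CPM to 9.50, 14.2 and 11.1 CPM (−0.89 ± 0.11, adjusted p = 5.65e-07, edgeR), and mrpl21.L changed by −0.85 ± 0.09 (adjusted p = 5.31e-08). The more abundant homeolog mrps12.S was at −0.05, so the loss of mrps12.L was not shared by most of the gene's mRNA. With spike-in scaling mrpl57.S, mrps12.L and mrpl21.L stayed called, at −1.02, −0.91 and −0.83. On the attomolar values limma called neither mrps12.L nor mrpl21.L, with a pseudocount of 0.01 or 0.1 aM. It called mrpl57.S at 0.01 aM (adjusted p = 0.0331, limma) but not at 0.1 aM (adjusted p = 0.0664). The members that rose included both homeologs of mrpl3 and all 3 rows of mrps2. The highest was mrps2.S, a small subunit protein at the junction of head and body in bacteria, from 26.9, 24.2 and 25.1 CPM to 38.0, 43.8 and 36.4 CPM (0.63 ± 0.10, adjusted p = 1.21e-05, edgeR). After it, among members with a mean log2 CPM of at least 3, came mrpl20.L at 0.47 ± 0.08 (adjusted p = 7.21e-05) and mrps17.L at 0.42 ± 0.09 (adjusted p = 0.000571), and a less abundant row of mrps2.L was at 0.49. Egg and oocyte libraries were apart for mrps2.S, mrpl20.L and mrps17.L. With spike-in scaling their values were 0.66, 0.50 and 0.45, and none was called (adjusted p = 0.0587, 0.19 and 0.259, edgeR).

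**Figure D4:**
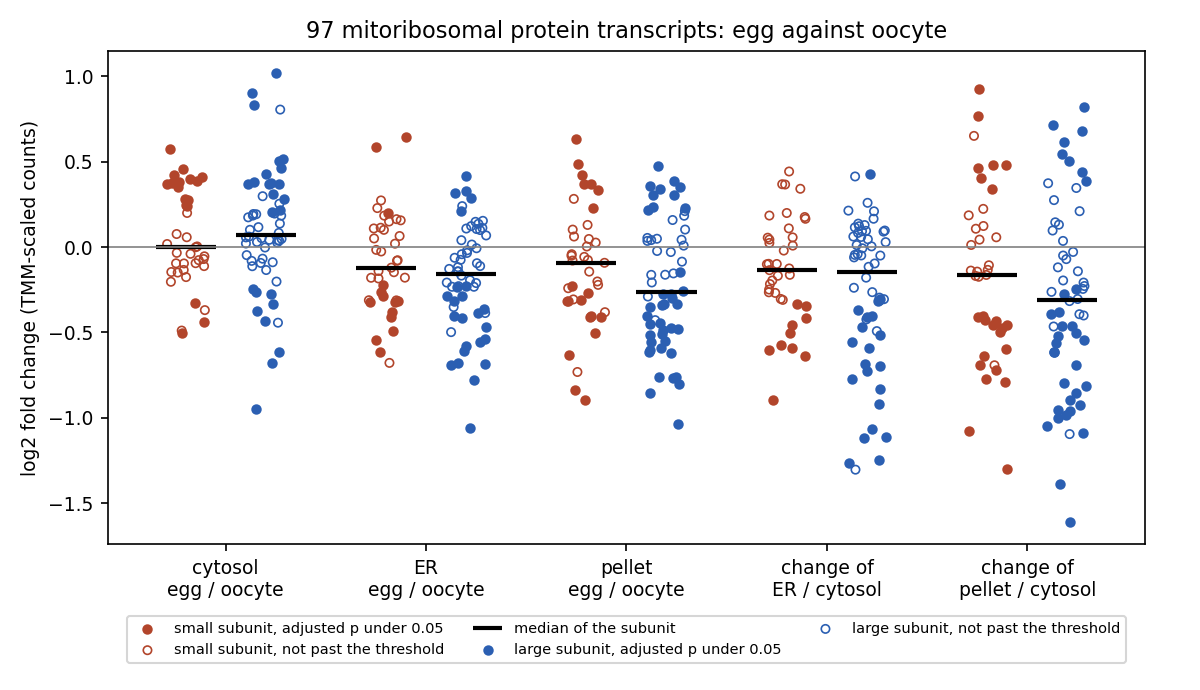
Log2 fold change (TMM-scaled counts, edgeR) of each of 97 members for egg against oocyte in each fraction, and the change of the ER to cytosol and pellet to cytosol ratios between stages, by subunit. Filled points passed an adjusted p under 0.05 and black bars are subunit medians. For the ER to cytosol ratio 30 members lie below 0 past the threshold and 1 above, against 14.7% and 12.4% of all transcripts.

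Whether a fraction's ratio to the cytosol itself changed was tested as an interaction of stage and fraction. The ER to cytosol ratio was lower in eggs for 30 members and higher for 1, where 14.7% of all transcripts were lower and 12.4% higher. The median was −0.14, against 0.00 for all transcripts. Cytosolic ribosomal protein mRNAs stood further out, with 77 of 120 lower, 1 higher and a median of −0.57. The difference between the lists was not tested. By subunit 20 of 58 large and 10 of 39 small subunit mRNAs were lower. With spike-in scaling 83 members were lower. The typical transcript's ratio also fell on that scale, so the 83 do not set members apart. The largest called changes were those of mrpl38.L at −1.26 ± 0.08 (adjusted p = 1.2e-10, edgeR), mrpl15.L at −1.25 ± 0.08 (adjusted p = 4.2e-11) and mrpl48.S at −1.12 ± 0.15 (adjusted p = 7.15e-06). The single rise was mrpl1.S at 0.43 ± 0.13 (adjusted p = 0.0153), which was lost without egg ER replicate 2 (0.36) and turned to −0.54 with spike-in scaling. Its homeolog mrpl1.L changed by −0.37.

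The pellet to cytosol ratio was lower for 42 members and higher for 15, where 23.4% of all transcripts were lower and 23.7% higher. The median was −0.26, against −0.01 for all transcripts, with −0.31 for the large and −0.16 for the small subunit. Cytosolic ribosomal protein mRNAs again stood further out, with 106 of 120 lower, 2 higher and a median of −0.87, a difference not tested. With spike-in scaling 20 members were lower and none higher. The typical transcript's ratio fell on that scale too, so these counts do not set members apart. Lowest were mrpl15.L at −1.61 ± 0.08 (adjusted p = 2.2e-13, edgeR), mrpl35.L at −1.39 ± 0.15 (adjusted p = 1.09e-07) and mrps15.L at −1.30 ± 0.12 (adjusted p = 5.17e-09). Highest among members with a mean log2 CPM of at least 3 were mrps17.L at 0.92 ± 0.13 (adjusted p = 3.04e-06), mrps2.S at 0.77 ± 0.14 (adjusted p = 6.69e-05) and mrpl20.L at 0.72 ± 0.12 (adjusted p = 4.2e-05). The less abundant mrpl3.L was at 0.82. With spike-in scaling the calls of mrps17.L (0.69, adjusted p = 0.162), mrps2.S (0.54, adjusted p = 0.301) and mrpl20.L (0.49, adjusted p = 0.37) were lost. Tunnel exit transcripts had 4 of 5 lower (median −0.69) and central protuberance transcripts 5 of 8 (median −0.33). Of the listed small subunit head transcripts (mrps7, mrps9 and mrps10) 1 of 5 was higher and none lower. For mrps31, mrps33 and mrps35, not on that list, L was at −0.14, −0.46 and −1.08 and S at −0.17, 0.06 and −0.69.

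The balance of the subunits was followed as the summed TPM of small over large subunit mRNAs in each library. In oocyte cytosol it was 0.720, 0.706 and 0.709, in oocyte ER 0.669, 0.670 and 0.669, and in oocyte pellet 0.624, 0.612 and 0.612. In egg cytosol it was 0.681, 0.684 and 0.692, in egg ER 0.684, 0.689 and 0.685, and in egg pellet 0.670, 0.667 and 0.650. The 3 oocyte fractions did not overlap and stepped down from cytosol to pellet, egg cytosol and ER overlapped, and the egg pellet lay below both. With mrps18a and mrps30 counted by their place in the large subunit and mrps36 left out, the mean was 0.604 for oocyte cytosol, 0.569 for ER and 0.514 for pellet, in the same order. With the median member of each subunit in place of the sum it was 0.937, 0.934 and 0.940 in oocytes, without that order. In eggs it was then 1.02 in cytosol, 0.916 in ER and 1.16 in pellet, so the egg pellet was no longer the lowest. No test was made of this ratio, which is a sum over chosen members.

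**Figure D5:**
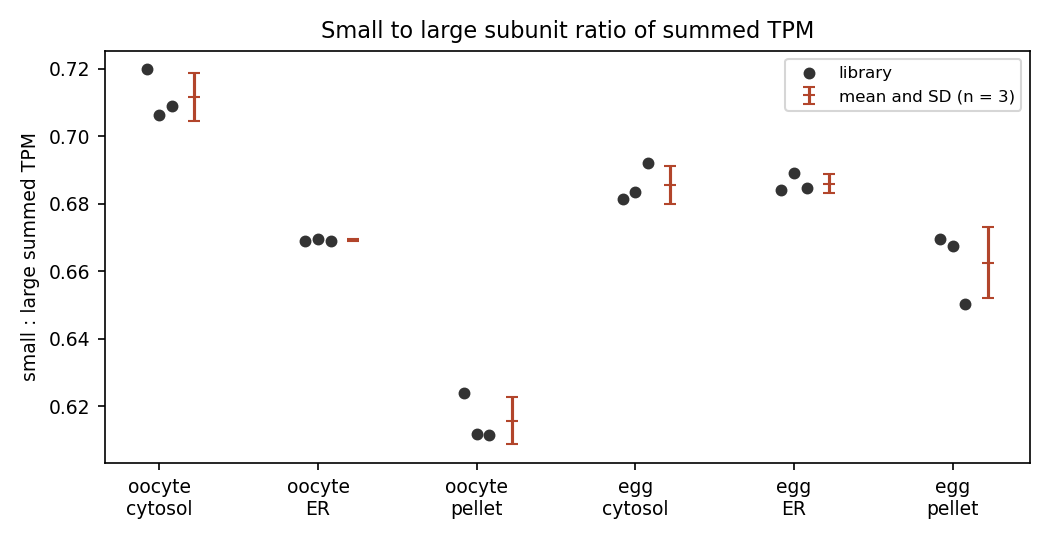
Summed TPM of small subunit mRNAs divided by that of large subunit mRNAs (vertical axis, not starting at 0) in each of 18 libraries, by group. Points are libraries and bars the mean and SD of 3; oocyte fractions step down from cytosol (0.706 to 0.720) to pellet (0.612 to 0.624), and egg cytosol and ER overlap.

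The authors' deposited table holds their own ratios of attomolar values with q-values. At a q under 0.05, the authors' deposited table had cytosol above ER in oocytes for 16 of 101 members and below for 5, against 33.3% and 2.83% of all transcripts. In eggs the authors' deposited table had cytosol above ER for 92 of 101 members and below for none, against 57.2% and 0.317% of all. The median ratio of cytosol over ER was nevertheless smaller for members, at 3.12 against 3.65 for all transcripts in eggs. In oocytes it was 1.18 against 1.55. The larger share of members past the q threshold in eggs is therefore not a larger ratio. For egg over oocyte, the authors' deposited table had 14 of 102 members above 1 in the cytosol and none below, and 49 of 101 below 1 in the ER and none above. The corresponding shares of all transcripts in the authors' deposited table were 7.7% and 0.91% in the cytosol, and 27.4% and 0.348% in the ER.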

How the data were processed

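The authors sequenced ribosomal RNA-depleted, stranded libraries, per the labels, and the submitters' processing notes name bcl2fastq 2.20 and kallisto 0.46.2. The transcript set and genome build are not given in the sources used here. The deposited files give estimated counts and TPM per transcript, without spike-ins in the totals used here. The authors also deposited attomolar values set from spike-ins, the percent of copies in each fraction, ratios (fold changes) and q-values per the file headers, with no test named. Another 22 columns of means and totals were not used here, and 1 unnamed transcript was dropped. RefSeq symbols (Xenopus_laevis_v10.1) matched 91 of 104 members.

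Estimated counts were rounded and filtered with filterByExpr by group. They were fitted with edgeR 4.0.16 (R 4.3.3, with TMM, glmQLFit and glmQLFTest) in 1 fit of 18 libraries with 12 residual degrees of freedom. The fit was also tried on simulated counts with the same spread for every transcript, a simpler setting than these data. Adjusted p-values are Benjamini-Hochberg over all transcripts. Comparisons with a shared group share its libraries. Alternatives used DESeq2 1.42.0 and limma 3.58.1. Members and gene lists were chosen with earlier results of these data known. Named were 3 marker mRNAs, the 3 highest and 3 lowest members per comparison whose mean log2 CPM reached 3, and the 5 highest and 3 lowest by TPM; role groups and other members named beside them were chosen after their values were seen. Replicate numbers are not stated to pair libraries. Counting limits precision for low members. No sequences are printed.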

Additional observations from a re-analysis of the deposited data

Results flagged for a closer look

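In 2 tests the difference between fractions itself differed between stages, by an interaction term in edgeR's quasi-likelihood fit. The ER to cytosol ratio was lower in eggs for 30 members and higher for 1, of 97, against 14.7% and 12.4% of all transcripts. The log2 changes of the named ones were 0.43 for mrpl1.S, −1.26 for mrpl38.L, −1.25 for mrpl15.L and −1.12 for mrpl48.S. The pellet to cytosol ratio was lower for 42 (43.3%) and higher for 15 (15.5%), against 23.4% and 23.7% of all transcripts, so rises were less frequent among members. The log2 changes of the named ones were 0.92 for mrps17.L, 0.77 for mrps2.S and 0.72 for mrpl20.L, and −1.61 for mrpl15.L, −1.39 for mrpl35.L and −1.30 for mrps15.L. These changes are relative to the typical transcript. Lower ratios were not particular to members. Of 120 cytosolic ribosomal protein mRNAs, 77 were lower in the ER to cytosol ratio and 106 in the pellet to cytosol ratio. With spike-in scaling the ER to cytosol ratio of mrpl15.L changed by −2.21 and that of mrpl38.L by −2.22. That scaling moves this ratio down by a similar amount for every transcript. A fall therefore stays a fall, and the kept direction is no separate support. The direction of mrpl1.S turned, to −0.54, and the rises of mrps17.L, mrps2.S and mrpl20.L in the pellet to cytosol ratio kept their sign but were no longer called.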

How the results depend on the processing

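The scale decides most directions: spike-in scaling and limma on attomolar values (pseudocounts of 0.01 and 0.1 aM) count copies, and TMM counts relative to the typical transcript. The cause of other moves was not tested. Depth limits mrpl27.S, mrps35.S, mrps10.L and the 7 members not tested. DESeq2 size factors in edgeR, DESeq2 itself, the fit of only the groups compared and the fit without a filter kept every member count within 1.5 times, except the few listed below.

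In these 3 settings, in the order spike-in scaling, 0.01 aM and 0.1 aM, members higher in the oocyte ER than in cytosol numbered 2, 2 and 2 and members lower 31, 3 and 5. Of all transcripts 2.56, 2.64 and 2.83% were higher there and 60.3, 33.2 and 40.9% lower. In the oocyte pellet 0, 0 and 0 members were higher and 85, 87 and 86 lower. Of all transcripts 82.8% were lower there with spike-in scaling and 83.2% at 0.01 aM. In the egg ER 0, 0 and 0 members were higher and 97, 96 and 97 lower, and in the egg pellet 0, 0 and 0 higher and 92, 97 and 97 lower. The counts from the egg fractions on are given without the share of all transcripts, so they do not set members apart. For egg against oocyte, spike-in scaling gave 9 higher in the cytosol, and the 3 settings gave 1, 0 and 0 lower. In the ER they gave 0, 0 and 0 higher and 82, 52 and 53 lower, and in the pellet 0, 0 and 0 higher and 7, 1 and 0 lower. For the ER to cytosol ratio they gave 0, 0 and 0 higher and 83, 87 and 88 lower, and for the pellet to cytosol ratio 0, 0 and 0 higher and 20, 18 and 22 lower.

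Single members changed sign in the same 3 settings. In the oocyte ER mrps12.L had −0.42, −0.24 and −0.21. In the oocyte pellet mrpl48.S had −0.19 and −0.15 at 0.01 and 0.1 aM, mrpl32.S −0.29, −0.51 and −0.45, mrpl15.L −0.44, −0.68 and −0.60, mrpl38.L −0.78, −1.03 and −0.91, and mrps12.L −1.12, −1.37 and −1.15. In the egg ER mrpl46.L had −0.80, −0.83 and −0.65, mrps18c.S −0.83, −0.84 and −0.78, and mrpl30.S −1.03, −1.04 and −0.99. In the egg pellet mrpl13.S had −0.21, −0.65 and −0.56, mrpl20.L −0.30, −0.66 and −0.62, mrpl3.S −0.38, −0.77 and −0.71, and mrps12.L −1.84, −2.31 and −1.85. For egg against oocyte in the ER mrps18c.S had −0.13, −0.094 and −0.08, mrpl45.L −0.30, −0.25 and −0.22, and mrpl11.L −0.40, −0.34 and −0.31. For the ER to cytosol ratio mrpl1.S had −0.54, −0.75 and −0.61, mrpl30.S −0.72, −0.89 and −0.85 (0.26 with TMM), and mrpl46.L −0.54, −0.77 and −0.60 (0.41 with TMM, neither called there).

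Of counts near 0, members lower in the oocyte pellet numbered 3 without a filter on low counts and 2 in a fit of only the groups compared. Members higher for the ER to cytosol ratio numbered 2 without a filter, 3 with only the groups compared and 2 with DESeq2. Leaving out each library in turn gave 0 to 1 members lower in the oocyte ER and 0 to 1 lower in the oocyte pellet. For egg against oocyte it gave 4 to 8 higher and 19 to 34 lower in the ER and 10 to 21 higher in the pellet, and for the ER to cytosol ratio 0 to 2 higher.

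Same-numbered libraries of a stage deviated together in 16 of 18 pairs (r over 0.1, lowest −0.084), a hint from the data that the labels do not state. With the replicate number as a block 68 members were higher in the oocyte ER, and with a replicate block of stage and number 70. That second block gave 1 member lower in the oocyte pellet and 3 higher for the ER to cytosol ratio, and no other count moved by over 1.5 times under either block.

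The ratio of small to large subunit mRNAs moved with its definition. By place in the ribosome it was 0.604, 0.569 and 0.514 in oocyte cytosol, ER and pellet and 0.580, 0.591 and 0.553 in eggs. By summed counts it was 0.792, 0.706 and 0.667 in oocytes and 0.759, 0.738 and 0.705 in eggs, and with medians 0.937, 0.934 and 0.940 in oocytes and 1.02, 0.916 and 1.16 in eggs. Attomolar values hardly moved it, with 0.716, 0.671 and 0.615 in oocyte cytosol, ER and pellet and 0.686, 0.687 and 0.664 in eggs.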
